A study of Mus musculus with 9 samples.

Results

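Nitric oxide (NO) made by endothelium relaxes vessels and keeps the liver's sinusoids, its fenestrated capillaries, open to flow. The 10 genes described here were taken by name from the deposited count table of 52636 Ensembl genes, and all 10 were found. They are the endothelial synthase Nos3, its partner Nosip, the cofactor gene Gch1, the arginine genes Ass1, Asl and Arg2, the methylarginine hydrolase genes Ddah1 and Ddah2, and the guanylate cyclase subunit genes Gucy1a1 and Gucy1b1. As background, NOS3 turns arginine into NO and citrulline and needs tetrahydrobiopterin (BH4) as a cofactor. ASS1 and then ASL rebuild arginine from the citrulline, while arginase draws on the same arginine. Methylated arginines released by protein breakdown block NOS3 until DDAH enzymes degrade them, and NO acts by binding soluble guanylate cyclase, which makes cyclic GMP (cGMP), often in a neighbouring cell such as a stellate or smooth muscle cell.

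RNA was sequenced from liver endothelial cells that were alive, lacked CD45 and carried CD31 and VE-cadherin, the latter marked by an antibody given to the living mouse. The 4 control libraries are labelled wild type and the other 5 Erg and Fli1 double knockout, and the question is what the loss of these ETS transcription factors does to this endothelium. Per the labels all mice received tamoxifen and cells were taken at day 7 after it. The sources used here give no recombinase driver, deleted exons or animal age, and do not say whether each library came from its own mouse, so p-values measure the spread between these libraries, which may in part be technical. Totals lay between 26791371 and 36401682 counts per library. Values are counts scaled to library size (CPM, TMM-adjusted), with mean ± SD over 4 control and 5 knockout-labelled libraries.

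Of the targeted genes, Erg was at 303, 337, 308 and 297 CPM in the controls and at 146, 131, 144, 135 and 159 CPM in the other group. Fli1 was at 104, 97.3, 90.4 and 109 CPM against 125, 151, 172, 123 and 166 CPM, so its gene-level counts were higher, not lower, in the libraries labelled knockout, and every direction below refers to that label. Replicates 2 and 3 labelled knockout stood apart on the second principal component (53.2 and 26.8, the other 3 between -46.2 and -11.7), and results that lose their call or move by over 1.5 times without them are given both ways. Endothelial markers were abundant everywhere (7 genes, sums of 14751 to 16521 CPM in controls and 10935 to 16306 CPM in the other group), but 2 of these 7 fell (Tie1 and Tek). Of 6 sinusoidal markers (sums of 22093 to 23392 CPM and 9049 to 15206 CPM) 3 fell, Stab1, Clec4g and Fcgr2b, each below all controls in every library labelled knockout. Lyve1, not past the threshold, was at 815 to 1191 CPM in controls and at 14.5, 937, 259.7, 29.5 and 28.1 CPM in the other group. Hepatocyte markers (15 genes) summed to 185 to 434 CPM in controls and 26.5 to 233 CPM in the libraries labelled knockout, where 3 fell and none rose. Smooth muscle markers (5 genes, 2 tested, none past the threshold) summed to 0.562 to 1.09 CPM and 0.221 to 3.76 CPM, with Acta2 at 0 in replicates 1 and 4 labelled knockout. In such bulk samples fewer cells of a type and less RNA per cell cannot be told apart.

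Between the groups, Nos3 fell 2.37-fold, Ass1 rose 7.06-fold, and the cyclase subunit genes Gucy1a1 and Gucy1b1 rose 4.28-fold and 4.46-fold from very low levels. Asl, Gch1, Ddah1, Ddah2 and Nosip did not pass the threshold, and Arg2 had too few counts to be tested. With edgeR's quasi-likelihood test and a Benjamini-Hochberg threshold of 0.05, 3 of the 9 tested members were higher and 1 lower, where 14.5% of all 14583 genes tested were higher, 14.8% lower and 29.3% changed in either direction. Control and knockout-labelled values lay fully apart for Nos3, Ass1 and Gucy1a1, as they did for 3938 of the 14583 genes, and nothing particular to the group is read from these counts. The median log2 fold change of the 9 was 0.10, and that of all genes 0.01. The shares of all genes given here are also the background for each count of called list or marker genes.

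**Figure D1:**
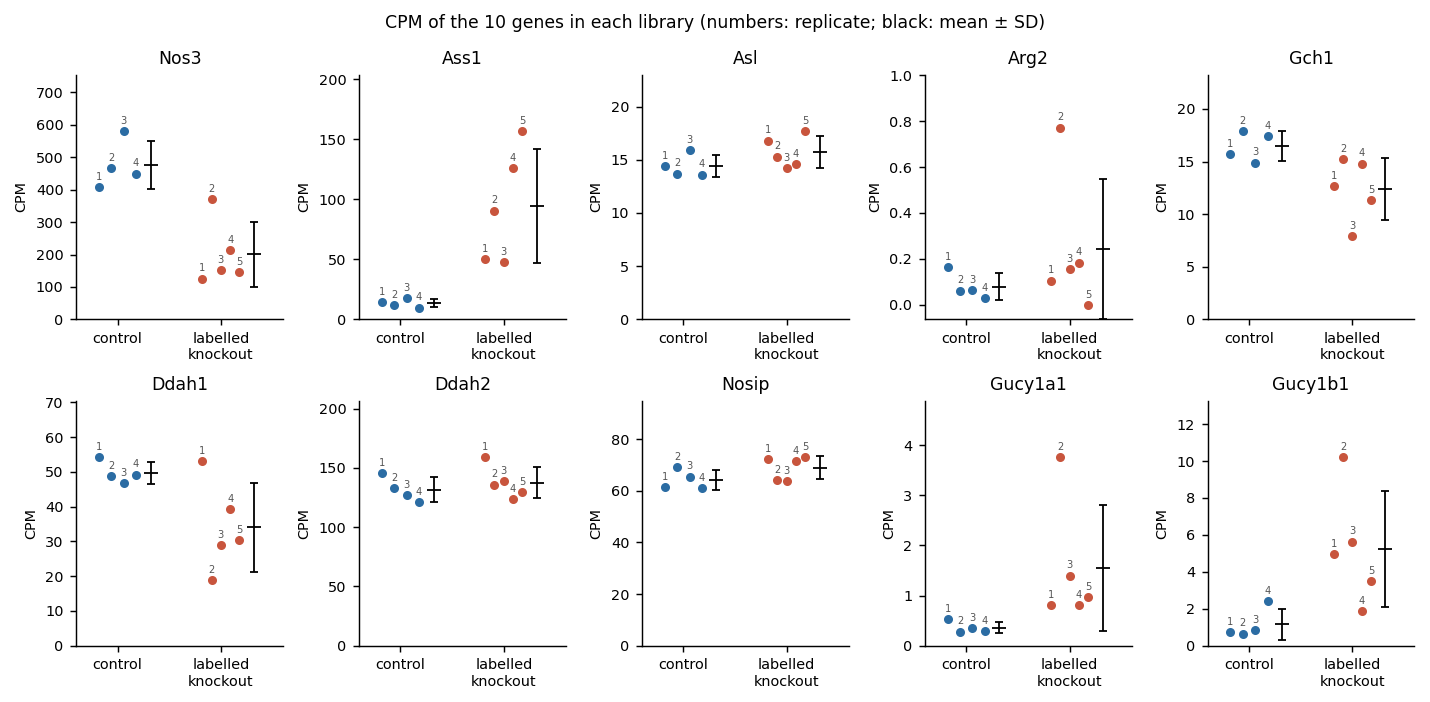
Each panel plots the CPM of 1 gene (vertical axis, linear) in the 4 control (blue) and 5 knockout-labelled (red) libraries, with replicate numbers beside the points and the mean ± SD in black. The groups lie apart for Nos3, Ass1 and Gucy1a1, and replicate 2 labelled knockout is the highest of its group for Nos3, Arg2, Gch1, Gucy1a1 and Gucy1b1.

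Per kilobase of annotated exon, the order of levels in controls was led by Nos3 (115 ± 17.9 CPM per kb) and Ddah2 (82.7 ± 6.52), whose ranges did not meet. Nosip (range 21.8 to 24.7), Ddah1 (12.5 ± 0.780) and Ass1 (5.54 ± 1.35) followed, then Asl (2.98 ± 0.218) and Gch1 (2.64 ± 0.224), whose ranges overlapped. Gucy1b1 (0.298 ± 0.213), Arg2 (0.0558 ± 0.0407) and Gucy1a1 (0.0519 ± 0.0160) lay far below, the last pair with overlapping ranges. In the libraries labelled knockout Ddah2 led (86.3 ± 8.42 CPM per kb), and Nos3 (48.7 ± 24.2, range 30.5 to 89.6) overlapped Ddah2 above it and Ass1 (39.1 ± 19.6, range 19.9 to 64.8) below it. Ass1 thus stood next to Nosip (24.6 ± 1.62), with overlapping ranges, where in controls it lay under Ddah1.

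The RefSeq promoter table of GRCm38.p6 held 7 of the 10 genes. It had none for Nos3, Asl or Arg2, so the promoter of Nos3, the member that fell, was not searched. Because ERG and FLI1 bind DNA at a core GGAA, that word was searched on both strands in the 250 bases before each start, where 93.4% of all 32851 promoters hold it. The longer forms CCGGAA and CAGGAA, which contain it, occurred in 12.0% and 25.7%. CCGGAA occurred 3 times before Nosip and not before Ass1, Gch1, Ddah1, Ddah2, Gucy1a1 or Gucy1b1, and CAGGAA occurred once, before Ass1, in annotated exon bases left out of the stretch shown. In the full windows GGAA occurred 2 times before Ass1, 4 times before Gucy1b1 and before the inner start of Gucy1a1, and not before its outer start. The windows of the genes that rose are shown because these 3 genes were higher in the libraries labelled knockout, 5′ to 3′ on the gene's strand and without bases that lie in an annotated exon, with GGAA or its reverse complement in capitals. A match is a description of these letters and not a site. The windows are those of Ass1 (chr2:31470020-31470206, plus strand), of the 2 starts of Gucy1a1 (chr3:82145074-82145262 and chr3:82145790-82145900, minus strand) and of Gucy1b1 (chr3:82074712-82074961, minus strand).
Ass1: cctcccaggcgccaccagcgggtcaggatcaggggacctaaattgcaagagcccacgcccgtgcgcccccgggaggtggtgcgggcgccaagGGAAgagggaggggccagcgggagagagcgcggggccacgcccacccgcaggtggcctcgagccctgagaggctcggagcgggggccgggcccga
Gucy1a1, inner start: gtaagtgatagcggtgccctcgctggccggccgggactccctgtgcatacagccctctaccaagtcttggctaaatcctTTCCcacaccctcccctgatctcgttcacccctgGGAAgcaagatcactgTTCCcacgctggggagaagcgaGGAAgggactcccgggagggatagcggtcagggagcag
Gucy1a1, outer start: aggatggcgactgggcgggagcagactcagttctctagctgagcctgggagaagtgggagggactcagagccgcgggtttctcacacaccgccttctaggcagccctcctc
Gucy1b1: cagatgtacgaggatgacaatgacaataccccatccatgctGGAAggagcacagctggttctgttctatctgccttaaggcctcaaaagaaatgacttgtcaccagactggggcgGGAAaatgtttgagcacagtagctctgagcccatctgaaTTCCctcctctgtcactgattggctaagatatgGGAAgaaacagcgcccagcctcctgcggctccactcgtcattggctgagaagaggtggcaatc

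Nos3 (ENSMUSG00000028978, GRCm38 chromosome 5, 24364810 to 24384474, plus strand) was at 409, 467, 581 and 449.5 CPM in the controls and at 125.9, 370.3, 151, 213 and 146 CPM in the libraries labelled knockout. Every control lay above every one of the latter, of which replicate 2 came closest. The log2 fold change was -1.24 ± 0.30 (SE), with edgeR adjusted p = 0.0128. It was -1.55 without replicates 2 and 3 labelled knockout (edgeR adjusted p = 5.66e-04). The 3' end of Nos3 shares 294 bases of exon with Atg9b, an autophagy gene on the opposite strand, and it is not stated whether counting used strand. Atg9b fell 2.85-fold, from 6.15 ± 0.389 to 2.15 ± 0.487 CPM (edgeR adjusted p = 4.92e-04). Gm15587, an antisense gene, shares 1040 bases of exon with Nos3. It had 55 counts in total in the controls and 29 in the libraries labelled knockout.

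Nos2, the inducible NO synthase, fell from 4.45 ± 1.21 to 0.696 ± 0.617 CPM (6.25-fold, edgeR adjusted p = 0.00908), with replicates 2 and 3 labelled knockout highest of their group (1.39 and 1.35 CPM, the others 0.167 to 0.318 CPM) and a 17.7-fold difference without them. The neuronal synthase Nos1 did not pass the count filter. Of all genes tested, 14.8% fell and 14.5% rose. Among 18 other tested genes whose proteins bind, modify or relocate NOS3, 3 fell, 1 rose and the rest did not pass the threshold (median log2 fold change -0.07). Those that fell included Calm2, a gene for the calcium sensor that switches NOS3 on, and Cav2, a caveolin of the membrane pits where NOS3 resides. Calm2 fell from 813 ± 31.3 to 437 ± 85.5 CPM and Cav2 from 139 ± 14.1 to 66.2 ± 22.6 CPM. Cav1, the caveolin that holds NOS3 inactive, had a log2 fold change of -0.84 ± 0.29 (SE) and missed the threshold (edgeR adjusted p = 0.0555). Nostrin, which draws NOS3 off the membrane, rose 1.35-fold (189 ± 2.69 to 255 ± 39.3 CPM), a call that ended without control replicate 2 (edgeR adjusted p = 0.0510).

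Nosip (ENSMUSG00000003421, chromosome 7, 45062429 to 45078210, plus strand), a ubiquitin ligase that binds NOS3, was at 61.5, 69.2, 65.5 and 61.0 CPM in controls and at 72.3, 64.3, 63.8, 71.5 and 73.0 CPM in the other group. These ranges overlapped, with a log2 fold change of 0.10 and an interval of 2 SE either side from -0.04 to 0.24. Prrg2, which starts on the opposite strand at the same place and shares 103 bases of exon with Nosip, fell from 29.3 ± 2.87 to 12.4 ± 1.22 CPM (edgeR adjusted p = 3.98e-05). Of 8 transcription factor genes described to act on the Nos3 promoter, 2 fell and none rose. The list does not give whether a factor raises or lowers Nos3. Its ETS genes Ets1 (log2 -0.30, edgeR adjusted p = 0.0652) and Elf1 (-0.42, 0.101), named after their values were seen, missed the threshold. Foxo1 fell 1.64-fold (147 ± 12.0 to 89.5 ± 9.03 CPM) and the flow-responsive Klf4 4.68-fold (578 ± 219.7 to 123 ± 112 CPM). Replicate 2 labelled knockout was highest of its group in Klf4 (321 CPM, the others 60.9 to 103 CPM). Klf4 was 7.79-fold lower without it and 7.38-fold without replicates 2 and 3, and its call ended with no count filter (edgeR adjusted p = 0.0550). Klf2, the other flow-responsive factor of that list, had a log2 fold change of -0.49 and missed the threshold (edgeR adjusted p = 0.359).

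The 5 genes whose pattern over the 9 libraries lay nearest to that of Nos3 were Apba1, Gstm1, Fam174b, Eva1c and Mras. Nearness was the root-mean-square difference of gene-centred log2 CPM, over 8655 genes with a mean of at least 10 CPM, and it ran from 0.146 for Apba1 to 0.296 for Mras. Apba1 was at 14.0, 15.1, 18.9 and 14.8 CPM in controls and at 3.78, 8.98, 4.65, 5.78 and 4.74 CPM in the libraries labelled knockout. The 5 were 2.32-fold (Gstm1) to 3.30-fold (Mras) lower in the latter. Leaving out control replicate 1 or 3, or replicate 1 or 5 labelled knockout, ended the call of Eva1c (edgeR adjusted p from 0.0501 to 0.0625). Like Nos3, Apba1 was highest in replicate 3 of the controls and in replicate 2 of the other group. These genes were picked for nearness to Nos3 over the same libraries, so such likenesses, their lower values included, follow from the choice.

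GTP cyclohydrolase, encoded by Gch1, makes the first committed step to BH4. Gch1 (ENSMUSG00000037580, chromosome 14, 47153895 to 47189413, minus strand) was at 15.7, 17.9, 14.9 and 17.4 CPM in controls and at 12.7, 15.2, 7.95, 14.8 and 11.3 CPM in the libraries labelled knockout, with replicate 2 of the latter above control replicate 3. Its log2 fold change of -0.41 ± 0.18 (SE) did not pass (edgeR adjusted p = 0.108, interval of 2 SE from -0.76 to -0.06). The BH4-recycling gene Qdpr fell 1.62-fold (38.5 ± 3.74 to 23.8 ± 3.13 CPM), as did Pcbd2 1.39-fold (7.71 ± 0.683 to 5.54 ± 0.577 CPM), and the other 5 of 7 further BH4 genes did not pass the threshold. Pcbd2 no longer passed when control replicate 1 or 2 was left out (edgeR adjusted p = 0.0579 and 0.0680), or replicates 2 and 3 labelled knockout (0.0648). Within a library, the log2 ratio of Gch1 to Nos3 was -4.80 ± 0.29 in controls and -3.88 ± 0.50 in the other group. That difference of 0.92 had p = 0.0159 in an exact two-sided permutation test over the 9 libraries, the smallest p possible here, and 0.0212 adjusted over 4 such ratios. The ratio was higher because Nos3 fell more (log2 -1.24, against -0.41 for Gch1), not because Gch1 rose.

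**Figure D2:**
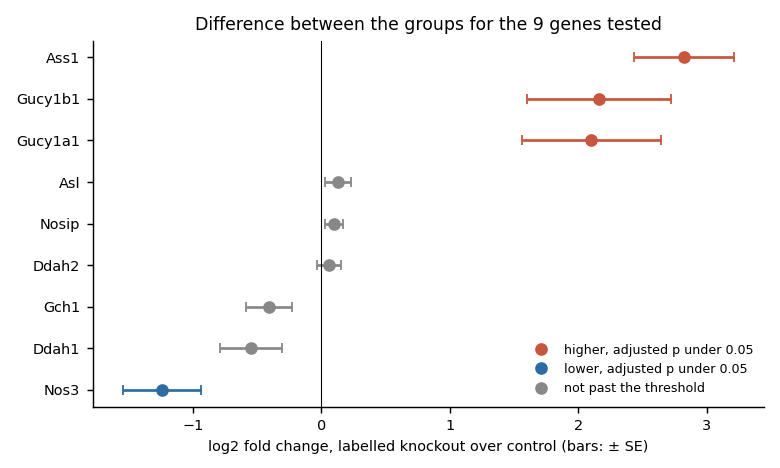
The log2 fold change of each of the 9 tested genes, libraries labelled knockout over controls (horizontal axis), is shown with its SE. Nos3 (blue, -1.24) lies below 0, Ass1, Gucy1b1 and Gucy1a1 (red, 2.82, 2.16 and 2.10) above it, and the 5 in grey were not past the threshold.

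Ass1 (ENSMUSG00000076441, chromosome 2, 31470207 to 31520672, plus strand), which makes argininosuccinate from citrulline and is the slow step of arginine recycling, showed the largest difference among the 9. It was at 14.2, 12.0, 17.5 and 9.81 CPM in controls and at 50.2, 90.7, 48.0, 126.1 and 157 CPM in the libraries labelled knockout. Even the lowest of the latter was well above the highest control, and replicates 4 and 5 were highest. The log2 fold change was 2.82 ± 0.39 (SE), with edgeR adjusted p = 8.36e-04, and 2.13% of all genes tested differed by at least as much in either direction. Ass1 is also abundant in hepatocytes. Replicate 5 labelled knockout, highest in Ass1, had the lowest hepatocyte marker sum (26.5 CPM, Alb at 13.5 CPM), and replicate 4, next in Ass1, had the highest sum of its group (233 CPM, Alb at 158 CPM, within the control range of 128 to 287 CPM). The part of hepatocyte RNA in the Ass1 counts was not tested.

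Asl (ENSMUSG00000025533, chromosome 5, 130011258 to 130029247, minus strand), the next enzyme of the recycling route, was at 14.4, 13.7, 15.9 and 13.6 CPM in controls and at 16.8, 15.3, 14.2, 14.6 and 17.7 CPM in the other group. The groups overlapped, and the log2 fold change of 0.13 had an interval of 2 SE from -0.07 to 0.32, where that of Ass1 was 2.03 to 3.61. Arg2 (ENSMUSG00000021125, chromosome 12, 79130777 to 79156301, plus strand), the mitochondrial arginase, had 5, 2, 2 and 1 counts in the controls and 3, 25, 6, 5 and 0 in the libraries labelled knockout. Replicate 2 of the latter thus held 25 of 39 counts, and the gene did not pass the count filter (at 0 counts, 3 counts is the limit that counting error allows). The log2 ratio of Arg2 to Nos3 rose by 1.63 (exact permutation p = 0.0159, adjusted 0.0212), but with Arg2 near 0 this ratio takes its value mostly from Nos3 and the added 0.5 CPM.

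**Figure D3:**
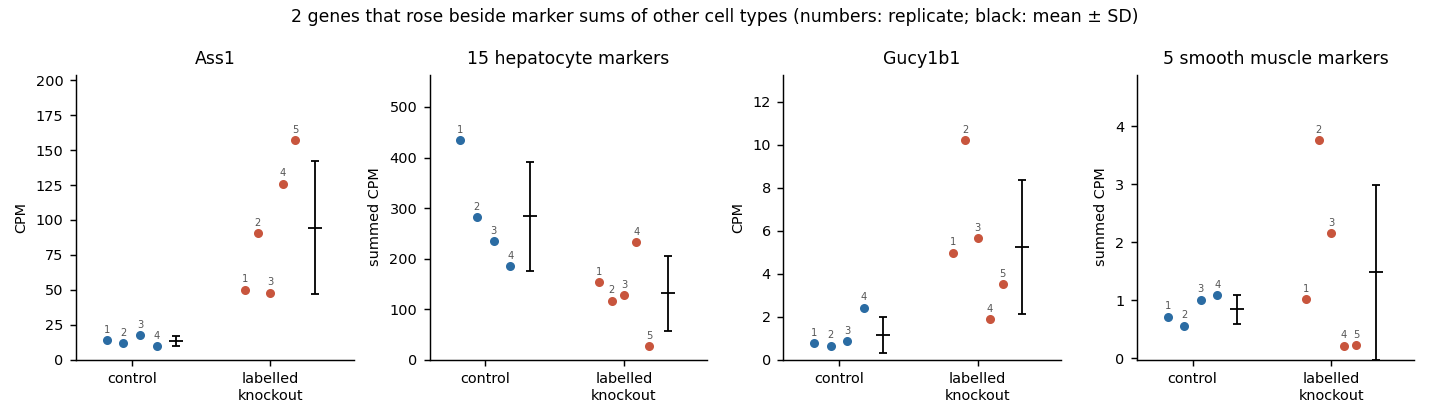
CPM of Ass1 and Gucy1b1 and summed CPM of 15 hepatocyte and 5 smooth muscle markers (vertical axes, linear) are plotted by library, with replicate numbers and the mean ± SD in black. Of the libraries labelled knockout, replicates 5 and 4 were highest in Ass1 and had the lowest and the highest hepatocyte sum of that group, and replicates 2 and 3 labelled knockout were highest for both Gucy1b1 and the smooth muscle sum.

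Among 23 other tested genes of arginine transport, the urea cycle, arginine breakdown and polyamines, 11 fell and 3 rose (median log2 fold change -0.58). Over all genes tested, 14.8% fell and 14.5% rose. Slc7a1, the main arginine importer, rose from 16.0 ± 1.27 to 48.7 ± 19.0 CPM (edgeR adjusted p = 0.00207). Another cationic amino acid transporter gene, Slc7a2 (log2 -1.65 ± 0.45, SE, edgeR adjusted p = 0.0222), and Slc3a2, the shared heavy chain of several amino acid transporters (-0.64 ± 0.13, SE, 0.00636), were among those that fell, and both were named after their values were seen. Arg1, the liver's cytosolic arginase, fell from 12.2 ± 5.42 to 2.82 ± 1.18 CPM, Aldh18a1, which feeds proline synthesis, from 12.4 ± 1.68 to 6.09 ± 1.63 CPM, and the spermine oxidase gene Smox from 28.5 ± 6.30 to 15.5 ± 2.03 CPM. The other 2 that rose, named after their values were seen, were Odc1 (log2 2.52 ± 0.62, SE), which starts polyamine synthesis from ornithine, and Oat (0.41 ± 0.11, SE), which moves ornithine toward glutamate. Odc1 was 5.72-fold higher with all libraries, 3.38-fold without replicate 3 labelled knockout and 2.52-fold without replicates 2 and 3, and its call ended with no count filter (edgeR adjusted p = 0.0607). The Oat call ended without control replicate 2 or 4 (edgeR adjusted p = 0.0678 and 0.0544). Arg1, Cps1 and Otc of this list are hepatocyte markers as well, all 3 with lower means in the libraries labelled knockout, and the hepatocyte marker sum was lower too. Its part in the lower genes was not tested.

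Ddah1 and Ddah2 encode the hydrolases that clear methylated arginine. Ddah1 (ENSMUSG00000028194, chromosome 3, 145758675 to 145894277, plus strand) was at 54.2, 48.9, 46.8 and 49.2 CPM in controls and at 53.1, 18.8, 28.9, 39.2 and 30.4 CPM in the libraries labelled knockout. Replicate 1 of the latter lay within the control range and the other 4 below it. The log2 fold change was -0.55 ± 0.24 (SE, edgeR adjusted p = 0.122), and without that replicate it was -0.76 and passed (edgeR adjusted p = 0.0198). Without replicate 2 labelled knockout it was -0.39, and without replicates 2 and 3 it was -0.28 (edgeR adjusted p = 0.143 and 0.255). In 18 of 19 alternatives Ddah1 did not pass. Ddah2 (ENSMUSG00000007039, chromosome 17, 35059035 to 35062095, plus strand) was at 146, 133, 127 and 121 CPM against 159, 136, 139, 124 and 129.9 CPM, with overlapping groups and a log2 fold change of 0.06 (interval of 2 SE from -0.12 to 0.24).

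The log2 ratio of Ddah1 to Ddah2 was tight in controls, from -1.44 to -1.29, and lay between -2.82 and -1.58 in the other group. The difference of -0.68 had an exact two-sided permutation p = 0.0159, adjusted 0.0212 over the 4 ratios, and it was -0.37 without replicates 2 and 3 labelled knockout. Of 8 further tested genes of this group, all of them arginine methyltransferases, Prmt2 rose from 17.5 ± 2.51 to 60.6 ± 29.9 CPM (edgeR adjusted p = 0.00396) and the other 7 did not pass the threshold. None of 6 genes of NO scavenging and nitrosothiol removal passed either (log2 fold changes from -0.26 to 0.30).

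Gucy1a1 and Gucy1b1 encode the alpha and beta subunits of the NO-sensing cyclase and are neighbours on the minus strand of chromosome 3 (82092427 to 82145789 and 82032006 to 82074689). Gucy1a1 was at 0.524, 0.281, 0.347 and 0.295 CPM in controls, from 9 to 16 counts each, and at 0.812, 3.76, 1.40, 0.810 and 0.968 CPM in the libraries labelled knockout. All of the latter lay above all controls, with replicate 2 far above the rest. The log2 fold change was 2.10 ± 0.54 (SE, edgeR adjusted p = 0.0166), or 4.28-fold. Leaving out replicate 2 labelled knockout gave 2.77-fold, and leaving out both 2 and 3 gave 2.39-fold (edgeR adjusted p = 0.0100 and 0.0221). The call ended without control replicate 2 (adjusted p = 0.0534).

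Gucy1b1 was at 0.753, 0.656, 0.851 and 2.42 CPM in controls and at 4.98, 10.2, 5.64, 1.88 and 3.51 CPM in the libraries labelled knockout. Here replicate 4 of the latter lay below replicate 4 of the controls, so the groups overlapped. The log2 fold change was 2.16 ± 0.56 (SE, edgeR adjusted p = 0.0173), 4.46-fold. It was 6.93-fold without control replicate 4, and 2.95-fold without replicates 2 and 3 labelled knockout (edgeR adjusted p = 0.0489). The call ended without control replicate 1, 2 or 3 (edgeR adjusted p = 0.0550, 0.0546 and 0.0529). The log2 ratio of the alpha to the beta subunit transcript was -0.85 ± 0.70 in controls and -1.48 ± 0.44 in the other group (exact permutation p = 0.159).

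Stellate cells and pericytes carry this cyclase. Of 12 listed markers 11 were tested, 3 rose (Colec11, Ecm1 and Pdgfra) and none fell, and the sum was 98.7 to 167 CPM in controls and 188 to 366 CPM in the other group, most of it Ecm1 (116 ± 31.5 and 279.5 ± 77.6 CPM). Defining ones were near 0, as was Gucy1a1, with Lrat at most 0.781 CPM and Pdgfrb at 0.0982 to 0.284 CPM in controls. Pdgfrb was at 0.926 and 0.676 CPM in replicates 2 and 3 labelled knockout and at 0.106 to 0.167 CPM in the others. Dcn (10.7 and 4.16 CPM) and Col3a1 (5.28 and 2.81 CPM) were also highest of that group in replicates 2 and 3. Lrat was lowest there (0 and 0.0520 CPM), and Ecm1 was highest in replicate 4 (359 CPM). Controls were at 1.58 to 3.44 CPM for Dcn and at 0.189 to 3.80 CPM for Col3a1. Pdgfra was highest in replicates 5 and 4 labelled knockout (2.84 and 1.91 CPM), and Colec11 in replicates 3 and 1 (10.6 and 7.09 CPM). Col1a1 and Col1a2 had log2 fold changes of -0.98 and -0.91 and did not pass the threshold. The pericyte gene Rgs5 was highest in replicates 2 and 3 labelled knockout (6.73 and 5.43 CPM) and in control replicate 4 (4.40 CPM). In replicates 1, 4 and 5 labelled knockout Rgs5 was at 0.812, 1.25 and 1.20 CPM, below all controls (2.06 to 4.40 CPM). Platelets carry the cyclase as well, and of 4 platelet markers 3 rose, with sums of 5.67 to 8.64 CPM in controls and 28.6 to 35.6 CPM in the other group (Pf4 2.76 ± 0.642 and 24.8 ± 3.18 CPM). The part of such cells in the cyclase counts was not tested.

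Of 15 other tested cGMP genes, 4 rose and 3 fell (median log2 fold change -0.08), where 14.5% of all genes rose and 14.8% fell. Npr1, the membrane guanylate cyclase that binds atrial natriuretic peptide, fell from 1331 ± 52.6 to 393 ± 106 CPM (3.38-fold, edgeR adjusted p = 2.24e-04), and Npr2, the receptor of C-type natriuretic peptide, from 144 ± 9.18 to 86.2 ± 5.54 CPM. Prkg1, the cGMP-dependent kinase, rose from 14.9 ± 1.42 to 27.7 ± 1.32 CPM, and its substrate gene Vasp from 144 ± 4.08 to 198 ± 28.5 CPM. The phosphodiesterase genes past the threshold, named after their values were seen, were Pde5a (log2 -0.83 ± 0.20, SE), Pde10a (1.34 ± 0.37, SE) and Pde3b (0.97 ± 0.31, SE). Without replicates 2 and 3 labelled knockout Pde10a went from 2.53-fold to 1.52-fold higher, and Pde3b from 1.95-fold to 1.48-fold, no longer past the threshold (edgeR adjusted p = 0.105). The Pde10a call ended without control replicate 1, 2 or 3, and Pde3b did not pass when control replicate 1, 2 or 4, or any of replicates 1 to 3 labelled knockout, was left out (edgeR adjusted p from 0.0563 to 0.105).

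**Figure D4:**
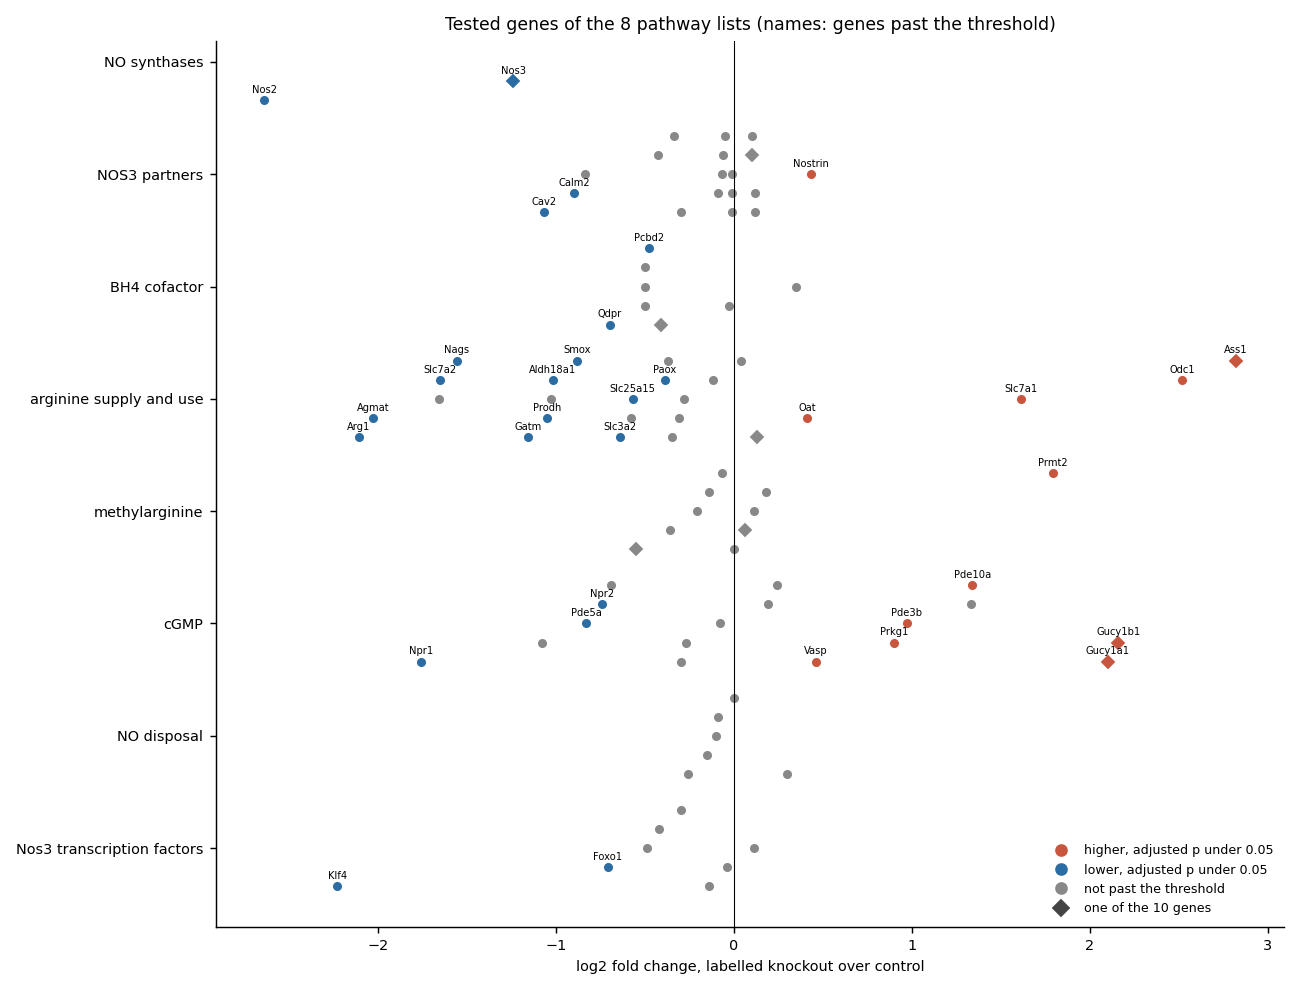
Each point is the log2 fold change of 1 tested gene (horizontal axis), grouped in rows by the 8 pathway lists, with diamonds for the genes described here and vertical spread only for legibility. In the row of arginine supply and use, Ass1, Odc1 and Slc7a1 lie farthest to the right (2.82, 2.52 and 1.61), and Arg1 farthest to the left (-2.11).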

How the data were processed

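Polyadenylated RNA of 9 samples of sorted mouse liver endothelium was counted per gene. The authors deposited 1 table of raw counts, and STAR 2.7.6a, FastQC 0.11.5 and GRCm38 are the tools and build named, per the submitters' processing notes. Which counter, annotation and strand setting were used is not given in the sources used here. Per the labels either an unstranded or a stranded kit was used, so reads of genes overlapping on opposite strands may be merged.

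Groups came from sample titles, and columns were matched by sample descriptions. GENCODE M21 (GRCm38) gave symbols for 52403 of 52636 identifiers and union exon lengths. Genes were filtered with filterByExpr (minimum count 10, total 15), leaving 14583. edgeR 4.0.16 (R 4.3.3, TMM factors, robust glmQLFit, glmQLFTest, no covariate) gave p-values, which were adjusted by Benjamini-Hochberg over those genes and called under 0.05. SE is the log2 fold change over the square root of F. Within a group no pair of libraries matched to within counting error (chi-square over its degrees of freedom, 20.3 to 182). Ratios used CPM + 0.5 and exact permutation tests.

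The members, lists and alternatives were chosen with earlier results of these data known. Named are the members, Erg and Fli1, tested genes overlapping a member where counts could be shared, up to 4 called genes per list by smallest p, and the 5 patterns nearest Nos3. The values of 1 listed gene are not reported or plotted here. Rpl36a-ps2, Gm15587 and Vti1b, which also overlap members, did not pass the threshold. Sex, read from Xist and Ddx3y, was mixed in both groups but not balanced between them. Control replicate 3 and replicates 3, 4 and 5 labelled knockout read as female, and the rest as male. Alternatives were other scalings, DESeq2 1.42.0, limma-voom (limma 3.58.1), other filters, a replicate block, a sex term and leaving out libraries.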

Additional observations from a re-analysis of the deposited data

Results flagged for a closer look

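In 28 groups checked (10 genes and 4 ratios, each in both groups), 5 held a library far from the others of its group, and chance flags about 1 in 20 groups. Replicate 2 labelled knockout stood apart for Arg2 (0.771 CPM, the other 4 at most 0.184 CPM) and for Gucy1a1 (3.76 CPM, the others at most 1.40 CPM). Control replicate 4 stood apart for Gucy1b1 (2.42 CPM, the other controls at most 0.851 CPM) and for the log2 ratio of Ddah1 to Ddah2 (-1.29, the others from -1.44 to -1.42). Control replicate 3 stood apart for the log2 ratio of Gch1 to Nos3 (-5.24, the others from -4.67 to -4.65), and it also had the highest Nos3 of all libraries (581 CPM).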

How the results depend on the processing

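Over 19 alternatives, 162 of 169 log2 fold changes of the 9 tested members kept direction and side of the threshold and none reversed. Those of Nos3 (-1.58 to -1.11) and Ass1 (2.46 to 3.06) passed in every fit run. Calls among the members numbered 4 with all libraries and 2 to 5 when 1 library was left out, and 2 with a filter of 5 CPM in 4 samples, which removes both cyclase genes. With a replicate block 2 members passed, the cyclase genes being lost (DESeq2 and limma-voom kept them), and 2671 genes in all in place of 4271. Same-numbered libraries showed little shared deviation (correlations 0.29, -0.03, -0.02 and -0.33). Only control replicate 1 was closest to its own number, so pairing by number was not seen in general, and pairing by another key was not tested. Over all genes the count ran from 3086 to 3999 when 1 library was left out. Calls among the 86 other tested list genes numbered 31, and 24 to 34 when 1 library was left out. Over all genes tested, 29.3% were called. Without replicates 2 and 3 labelled knockout the log2 ratio differences were 1.62 (Arg2 to Nos3), 1.24 (Gch1 to Nos3) and -0.37 (Ddah1 to Ddah2), each with an adjusted p of 0.0762 because fewer arrangements exist. The ratio of Gucy1a1 to Gucy1b1 (-0.63) ran from -0.97 to -0.44 when 1 library was left out and passed at -0.97 without control replicate 4. Arg2, tested without a count filter, differed by 1.58 ± 0.92 log2 units (SE), at an edgeR adjusted p of 0.313. Depth limits Arg2 and Gucy1a1, where 1 count was worth 0.0260 to 0.0368 CPM. With no count filter the calls of Klf4, Odc1, Pcbd2, Eva1c, Pde10a and Pde3b also ended (edgeR adjusted p from 0.0550 to 0.0958), and that of Pde3b with limma-voom (0.0581) and with a sex term (0.0740).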
